A study of Mus musculus with 12 samples.

Results

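The 42 genes described here encode the DNA replication machinery and its S-phase partners: the helicase and its loading factors, the polymerases, the sliding clamp and its loader, the enzymes that make deoxynucleotides, and the regulators that start S phase. They were chosen by gene symbol from a table of 56941 mouse genes, each matched exactly 1 row, and all 42 were among the 14810 genes with enough counts to be tested. The measurements were bulk RNA-seq counts from the 3T3-L1 line, fibroblasts derived from mouse embryos that can be turned into adipocytes. Cells received either no cytokine (control), IL-4/13 (IL-4 and IL-13, each 50 ng/mL), Inf (an inflammatory mix of 20 ng/mL TNF-α, 0.5 ng/mL IL-1β, and 50 ng/mL IL-17A), or IL-4/13 + Inf (all of these together), for 24 hours, and each condition had 3 libraries. All 12 were of wild-type genotype, the same line, and the same labelled batch.

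DNA replication is prepared in G1, when the helicase made of MCM2 to MCM7 is loaded onto DNA by CDC6 and CDT1, a step called licensing. Before S phase, cyclins with their kinases, cyclin E among them, release E2F transcription factors from the retinoblastoma protein. E2F then switches on most of the genes described here. Because these mRNAs build up in late G1 and S phase, their summed level in a culture is widely used as a sign of how many cells are cycling. In a bulk library, however, a smaller share of cycling cells and less of an mRNA in each cycling cell cannot be told apart.

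The libraries held between 13446005 and 20775769 counts, and replicates differed from each other by more than counting noise, so no library was counted out as a copy. The labels do not say whether the 3 libraries of a condition came from separate cultures, so p-values measure only the spread between these libraries. The fibroblast markers Col1a1, Col1a2, and Vim were abundant, with Col1a1 at 1997 CPM or more in every library (CPM are counts per 1000000 counts, scaled for library composition). Several defining markers of other cell types were at or near 0: Adipoq, Plin1, and Cfd (adipocytes) and Adgre1, Itgam, and Cx3cr1 (macrophages) had at most 1 count in any library, Ptprc (leukocytes) had at most 5, and Lep, Krt5, and Epcam had 0. Other genes of these lists were measured. Of the adipocyte markers, Lpl, a lipase, was at 46.0 to 80.1 CPM and fell with Inf (log2 fold change −0.47), and Fabp4, a fatty acid carrier, was at 10.7 to 32.2 CPM and rose with Inf (1.41, edgeR adjusted p = 9.05e-11). The summed level of the 8 adipocyte markers was 90.1 to 91.2 CPM in control, 84.4 to 86.6 CPM with IL-4/13, 84.9 to 89.1 CPM with Inf, and 67.4 to 73.8 CPM with IL-4/13 + Inf, and its part in the results was not tested. Krt10, a keratinocyte marker, had up to 102 counts, and of the macrophage markers Csf1r had up to 75, Mrc1 up to 64, Lyz2 up to 56, and Cd68 up to 32. Mrc1 had means of 0.18 CPM in control, 0.48 with IL-4/13, 2.11 with Inf, and 3.03 with IL-4/13 + Inf. Csf1r went from 3.54 CPM in control to 2.64 with Inf. Of the endothelial markers, Cdh5 had up to 22 counts, with means of 0.12 CPM in control and 0.85 with Inf. Tek had up to 12 counts, with means of 0.24 and 0.15 CPM. The part of these genes in the results was not tested. The summed level of the 8 fibroblast markers itself varied with condition, from a mean of 18120 CPM in control to 10520 CPM in IL-4/13 + Inf libraries, and its part in the results was not tested. The 8 genes did not all move together: with Inf, 5 were called lower and 2 higher (edgeR), against 15.3% and 16.3% of all tested genes. The 2 that rose were Pdgfra, from a mean of 196 CPM in control to 385 CPM with Inf, and Pdgfrb, from 269 to 481 CPM.

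Taken as a whole, the replication genes were at their highest with IL-4/13 alone and at their lowest with Inf. Their summed level was 3606 to 3641 CPM in the 3 control libraries, 3901 to 4009 CPM with IL-4/13, 2750 to 2838 CPM with Inf, and 3339 to 3399 CPM with IL-4/13 + Inf. The 4 conditions did not overlap in this sum. The means were 3623 ± 17.5 CPM in control, 3942 ± 58.5 CPM with IL-4/13, 2808 ± 49.96 CPM with Inf, and 3379 ± 34.4 CPM with IL-4/13 + Inf (SD, n = 3 each), which are given as a description with no test of the sum.

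**Figure D1:**
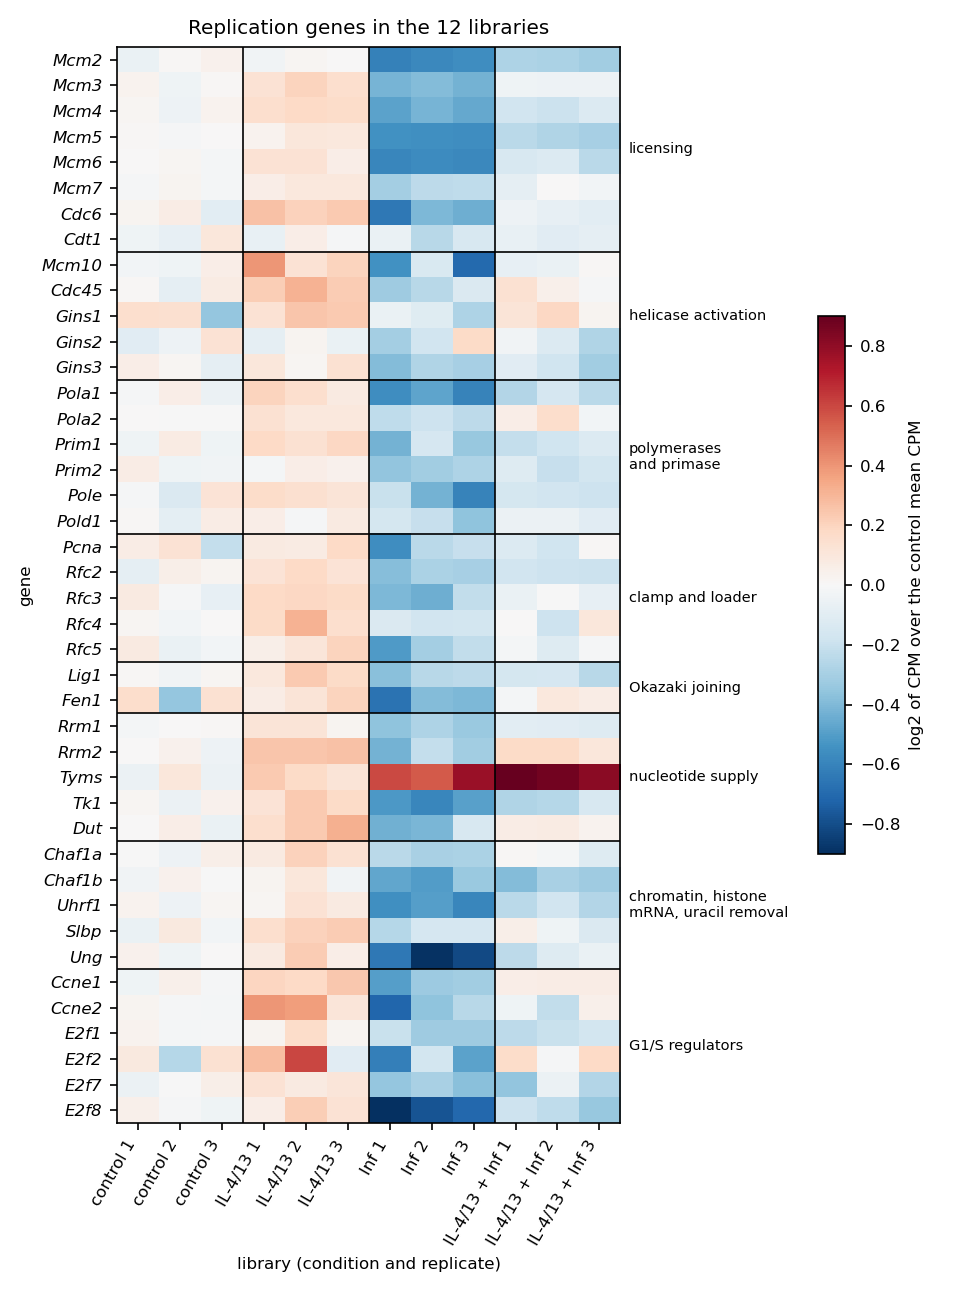
Heat map of the 42 genes (rows, grouped by role) in the 12 libraries (columns), colored by the log2 of CPM over the mean CPM of the control libraries. The Inf columns are blue for nearly every gene, and Tyms is the row that is red in all Inf and IL-4/13 + Inf libraries.

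Levels were divided by the length of each gene's longest annotated protein-coding transcript so that genes could be compared. Other transcript lengths were not tried, and the order may depend on this choice. Rrm1 was the most abundant, with a mean of 76.8 CPM per kb over the 12 libraries. It was followed by Mcm5 at 72.8, Tk1 at 69.6, Mcm4 at 67.6, and Mcm2 at 65.8 CPM per kb. The 5 MCM genes Mcm2 to Mcm6 lay between 44.0 and 72.8 CPM per kb. The place of Pcna, at 16.2 CPM per kb, is uncertain. It had 4966 counts over the 12 libraries, whereas the pseudogene Pcna-ps2, which shares part of its sequence, had 17575 that are not in this ranking. At the other end were Fen1, whose level is uncertain because it overlaps genes on the opposite strand, at 2.30 and E2f2 at 1.29 CPM per kb. These 2 genes had as few as 54 and 59 counts in a library, so their fold changes are less precise than those of the MCM genes.

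Inf lowered most of the replication machinery. Of the 42 genes, 32 fell and 1 rose compared with control (edgeR's quasi-likelihood test, adjusted p below 0.05 over all tested genes and a log2 fold change beyond 0.25), against 15.3% of all tested genes called lower and 16.3% called higher. The median log2 fold change of the 42 genes was −0.33, whereas the median of all tested genes was 0.01. In 36 of the 42 genes every Inf library lay below every control library, as was the case for 24.5% of all tested genes, and in 1 gene, Tyms, every Inf library lay above, as was the case for 23.5%. The falls covered every step of replication: 7 of 8 licensing genes, 2 of 5 helicase activation genes, 4 of 6 polymerase and primase genes, 4 of 5 clamp and loader genes, both Okazaki fragment joining genes, 4 of 5 nucleotide supply genes, 4 of 5 chromatin, histone mRNA, and uracil removal genes, and 5 of 6 G1/S regulators.

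Nearly all licensing genes fell, and the subunits of the helicase had the smallest SEs of the group. Mcm5, the most abundant of them per kb, was at 278, 273, and 276 CPM in the control libraries and at 189, 189, and 188 CPM with Inf. The groups were far apart relative to their spread, and the log2 fold change was −0.55 (SE 0.041, edgeR adjusted p = 1.31e-12). Mcm2 was at 245, 257, and 262 CPM in control and at 168, 171, and 173 CPM with Inf. Its log2 fold change was −0.58 (SE 0.042, edgeR adjusted p = 8.39e-13), the largest among the licensing genes. Mcm6 followed at −0.58 (SE 0.044), with 211, 214, and 209 CPM in control and 140, 142, and 141 CPM with Inf. Cdc6, Mcm4, and Mcm3 also fell, by 0.49, 0.45, and 0.41 on the log2 scale, whereas Mcm7 lay just past the size threshold at −0.26. Cdt1, the partner of CDC6 in helicase loading, was the licensing gene that was not called (log2 fold change −0.15, edgeR adjusted p = 0.0362), and its Inf libraries at 67.7 to 77.2 CPM overlapped those of control at 76.5 to 86.2 CPM.

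Fewer genes passed the test among those that turn the loaded helicase into an active fork. Cdc45, the helicase cofactor with the highest level per kb in this group, was at 47.9, 44.9, and 49.99 CPM in control and at 38.2, 40.0, and 43.5 CPM with Inf. All Inf libraries were lower, but the log2 fold change of −0.23 (SE 0.067, edgeR adjusted p = 0.00561) did not pass the size threshold. Mcm10, which helps the helicase to start moving, fell by 0.43 on the log2 scale, and Gins3, a subunit of the GINS complex, by 0.32. The other GINS genes measured, Gins1 and Gins2, gave values of −0.15 and −0.09 with overlapping libraries. Their SEs, 0.12 and 0.098, were above those of the MCM genes.

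Among the polymerases, Pola1, the catalytic subunit of the polymerase that starts each new strand with the primase, had the largest change, with a log2 fold change of −0.54 (SE 0.056, edgeR adjusted p = 2.51e-09). Pole, the catalytic subunit of the leading strand polymerase, fell by 0.41, and the primase genes Prim2 and Prim1 fell by 0.32 and 0.30. Pola2, the most abundant of this group per kb, was at 67.4, 67.2, and 67.04 CPM in control and at 57.4, 59.2, and 57.0 CPM with Inf, with no overlap. Its log2 fold change was −0.22 and that of Pold1, the lagging strand polymerase, was −0.24, both under the size threshold.

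Of the clamp and its loader, 4 genes fell. Rfc3, the loader subunit with the highest level per kb, was at 52.7, 49.4, and 47.2 CPM in control and at 37.7, 36.7, and 42.8 CPM with Inf, a log2 fold change of −0.35 (SE 0.066, edgeR adjusted p = 6.36e-05). Rfc5 and Rfc2 fell by 0.34 and 0.32, whereas Rfc4 had a value of −0.16 that did not pass the test. Pcna, the sliding clamp itself, fell by 0.32 (SE 0.096, edgeR adjusted p = 0.00724), although its Inf libraries at 17.5, 21.8, and 22.3 CPM overlapped the lowest control library at 22.2 CPM. The Pcna call was lost without control replicate 2 (−0.25, adjusted p = 0.0615) or Inf replicate 1 (−0.22, adjusted p = 0.0677). In the joining of Okazaki fragments, Lig1, the ligase, was at 116, 113, and 117 CPM in control and at 88.7, 96.7, and 97.7 CPM with Inf. The log2 fold change of Lig1 was −0.29 (SE 0.052, edgeR adjusted p = 3.97e-05). Fen1, the flap nuclease, was at 6.34, 4.47, and 6.24 CPM in control and at 3.59, 4.34, and 4.30 CPM with Inf. All 3 Inf libraries of Fen1 were lower, with a log2 fold change of −0.48 (SE 0.16, edgeR adjusted p = 0.0192), and the call was lost without control replicate 1 (adjusted p = 0.106), control replicate 3 (0.0884), or Inf replicate 1 (0.0785).

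Nucleotide supply held the exception. Tyms, which encodes thymidylate synthase, the enzyme that makes the thymidine nucleotide from the uridine form, was at 68.9, 76.7, and 68.96 CPM in control and at 108, 105, and 123 CPM with Inf. Every Inf library was above every control library, and the log2 fold change was 0.65 (SE 0.059, edgeR adjusted p = 1.93e-10). Rrm1 and Rrm2, the subunits of ribonucleotide reductase, moved the other way. Rrm1 was at 320, 324, and 327 CPM in control and at 252, 267, and 257 CPM with Inf, and it fell by 0.33 on the log2 scale (SE 0.041). Rrm2 was at 102, 105, and 98.8 CPM in control and at 75.9, 87.7, and 82.2 CPM with Inf, and it fell by 0.31 (SE 0.053). Tk1, thymidine kinase, which makes the same nucleotide by salvage, fell by 0.53 (SE 0.053, edgeR adjusted p = 9.07e-10), and Dut, which removes dUTP, fell by 0.32.

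The largest falls were in a uracil repair gene and a repressor of the E2F family. Ung, the glycosylase that removes uracil from DNA, was at 13.2, 12.5, and 12.9 CPM in control and at 8.24, 6.97, and 7.34 CPM with Inf, a log2 fold change of −0.78 (SE 0.11, edgeR adjusted p = 9.76e-07). E2f8, an E2F member that represses S-phase genes, was at 32.7, 31.5, and 30.9 CPM in control and at 16.5, 18.5, and 19.4 CPM with Inf. It had the largest fall of the 42 genes, at −0.80 (SE 0.081, edgeR adjusted p = 1.40e-09). Uhrf1, which guides DNA methylation to newly made strands, was at 185, 176, and 184 CPM in control and at 124, 129, and 121 CPM with Inf, and it fell by 0.55 (SE 0.046). Chaf1b and Chaf1a, which place histones on new DNA, fell by 0.43 and 0.27, and Slbp, which binds histone mRNA, had a value of −0.18 under the size threshold.

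The cyclins and the remaining E2F genes were also called lower, apart from E2f2, whose value was below 0 but did not pass. Ccne1, the cyclin E gene with the higher level per kb, was at 43.3, 45.7, and 44.1 CPM in control and at 31.4, 35.4, and 35.7 CPM with Inf, and it fell by 0.37 (SE 0.065, edgeR adjusted p = 2.34e-05). Ccne2, the other cyclin E gene, was at 28.9, 28.2, and 28.0 CPM in control and at 17.3, 22.1, and 23.8 CPM with Inf, and it fell by 0.42 (SE 0.10). E2f7, a repressor like E2f8, fell by 0.34, and E2f1, an activator, by 0.28. E2f2, an activator with few counts, had a log2 fold change of −0.40 that did not pass the test (SE 0.18, edgeR adjusted p = 0.0715).

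**Figure D2:**
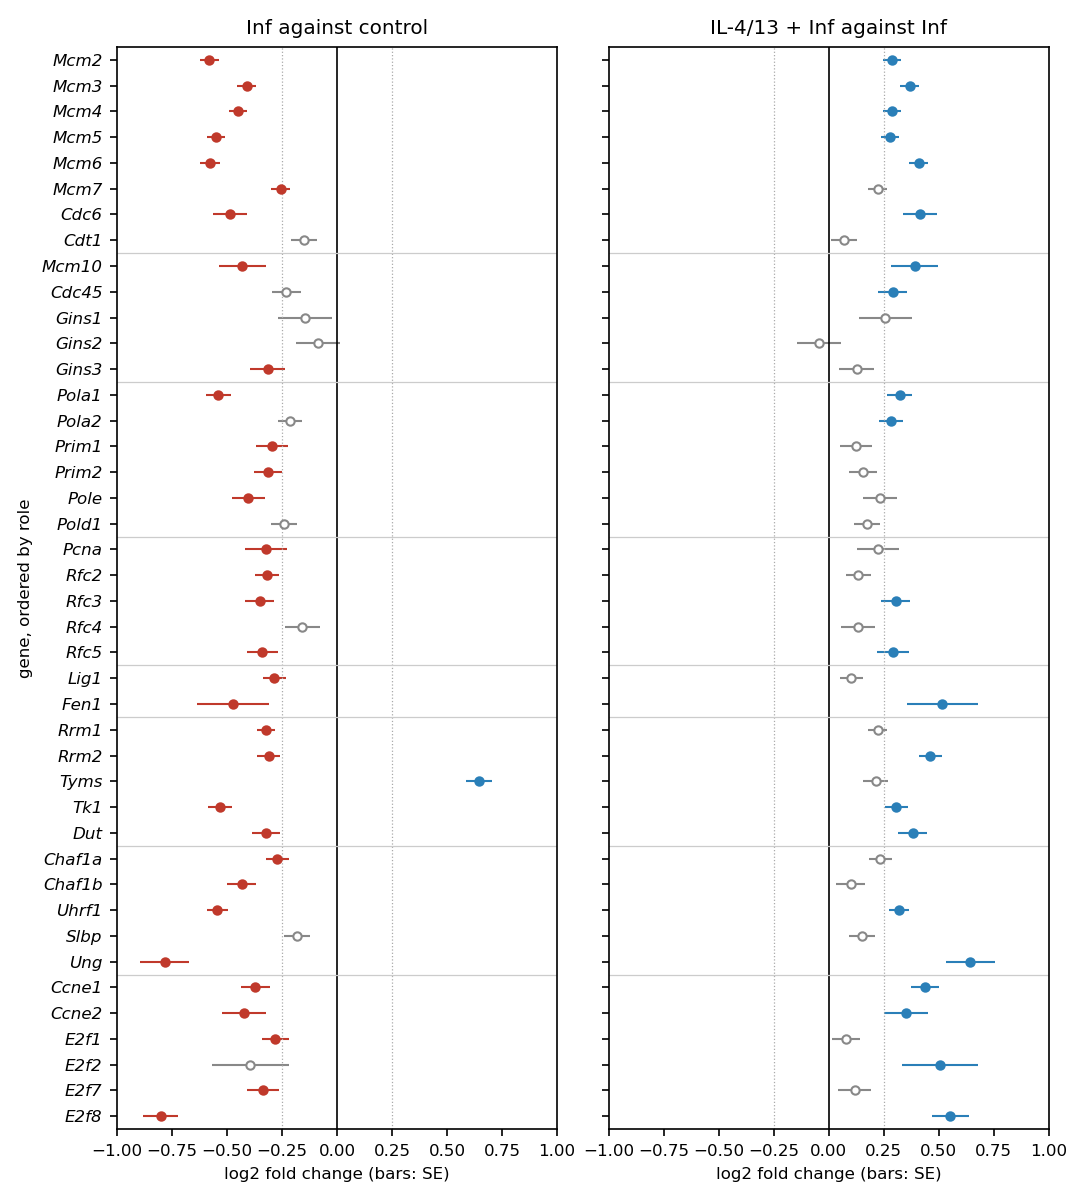
Log2 fold change with its SE for each of the 42 genes, for Inf against control on the left and IL-4/13 + Inf against Inf on the right, with horizontal lines between role groups and dotted lines at 0.25 in each direction. Filled points passed the test (32 lower and 1 higher on the left, 22 higher on the right), and open points did not. The panels share the Inf libraries, so they are not independent of each other.

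The call did not rest on a single library: between 28 and 34 of the 42 genes were called lower when any library was left out, the lowest number being without Inf replicate 1. Of the 33 genes called, 27 kept their call in all 20 alternatives of the fit. Beside Fen1 and Pcna, the calls of Lig1 (−0.25), Prim1 (−0.24), and Mcm7 (−0.23) fell under the size threshold without Inf replicate 1. That of Mcm7 also did so without control replicate 2 (−0.24) and when only genes with a mean of 50 counts were tested (−0.24). The call of Chaf1a fell under it without control replicate 3 (−0.24).

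Because many of these genes are E2F targets, their start sites were searched for the E2F motif. RefSeq promoter sequences (GRCm38.p6, 250 bases before to 50 bases after the start) were given for 35 of the 42 genes, and none for Ccne2, Gins1, Gins2, Mcm4, Pole, Prim2, and Rfc2. The letters TTTCGCGC or TTTGGCGC, on either strand, were present in 10 of the 35 genes, or 28.6%, compared with 0.929% of the 27025 genes in the promoter table and 1.78% of the 9932 tested genes that could be matched to it. They were also present in 6 of 33 other replication genes (18.2%), 2 of 19 G1 control genes (10.5%), and 1 of 24 mitosis and G2/M genes (4.17%). The 10 genes were Cdt1, E2f2, Lig1, Mcm3, Mcm5, Mcm6, Mcm7, Pola1, Rfc3, and Uhrf1. The stretches around the motif are shown for the 5 genes in which it lies before the start, with the motif in capitals, to show what was matched, and most of the 35 genes had no match. Where matches on both strands overlap, the capitals run on across them.
Mcm5, chr8:75109336-75109387, plus strand: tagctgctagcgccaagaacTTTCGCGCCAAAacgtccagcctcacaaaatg
Mcm6, chr1:128359725-128359835, minus strand: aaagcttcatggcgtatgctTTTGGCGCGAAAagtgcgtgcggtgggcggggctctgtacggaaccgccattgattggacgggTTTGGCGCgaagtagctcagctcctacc
Uhrf1, chr17:56304108-56304155, plus strand: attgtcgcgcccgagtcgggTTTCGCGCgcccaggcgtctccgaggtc
Pola1, chrX:93632266-93632313, minus strand: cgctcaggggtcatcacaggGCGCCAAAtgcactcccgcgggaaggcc
Rfc3, chr5:151651209-151651238, minus strand: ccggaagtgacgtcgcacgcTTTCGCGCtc

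Mcm6 held 3 matches, 110, 106, and 47 bases before its start, and Mcm5 held 2 overlapping ones that begin 153 bases before. The 10 genes with the motif had a median log2 fold change of −0.40 with Inf and 8 of them were called lower, and the 25 genes with a promoter but no match had a median of −0.32 with 19 called lower and 1 called higher. Tyms, E2f8, and Ung had no match in this window, so genes without these letters were among both the largest falls and the single rise. CCAAT, on either strand, was found in 20 of the 35 genes (57.1%, compared with 54.5% of other replication genes and 43.5% of tested genes), and TTTGAA, the motif of the cell cycle homology region found in mitotic gene promoters, was found in 6 of the 35 genes (17.1%, compared with 14.5% of tested genes). A match is a match of letters only, and none of these shares was tested.

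With IL-4/13 alone, most values were slightly above those of control but few passed the test. Of the 42 genes, 3 were called higher and 0 lower (edgeR), against 2.78% and 2.57% of all tested genes. DESeq2 also called 0 lower, and at an unadjusted p under 0.05 edgeR gave 21 higher and 0 lower. The share of all tested genes at that unadjusted cutoff was not counted, here or in the comparisons below. The median log2 fold change was 0.14, and 39 genes had a value above 0. In 27 genes, every IL-4/13 library was above every control library, compared with 13.4% of all tested genes, and in 0 genes was every library below, compared with 13.1%. Rrm2 was at 121, 121, and 122 CPM with IL-4/13, all above the control values given earlier, with a log2 fold change of 0.26 (SE 0.052, edgeR adjusted p = 0.00115). Ccne2 was at 37.4, 36.8, and 30.6 CPM with IL-4/13 and had a log2 fold change of 0.31 (SE 0.096, edgeR adjusted p = 0.0458). Cdc45 was at 55.5, 59.03, and 55.8 CPM with IL-4/13, a log2 fold change of 0.25 (SE 0.065, edgeR adjusted p = 0.0112). Each of these 3 calls was lost when a library was left out, and the number called fell to 1 without control replicate 3 and to 1 without IL-4/13 replicate 2. With no threshold on size, 11 genes were called higher, against 4.5% of all tested genes. Mcm3 at 0.16, Slbp at 0.20, and Dut at 0.23 were among these 11.

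Added on top of Inf, IL-4/13 raised genes of every role. Of the 42 genes, 22 were higher with IL-4/13 + Inf than with Inf and 0 were lower, against 7.55% and 7.00% of all tested genes called higher and lower (edgeR). DESeq2 also called 0 lower, and edgeR had 0 lower at an unadjusted p under 0.05. The median log2 fold change was 0.28, and in 33 genes every IL-4/13 + Inf library was above every Inf library, compared with 18.3% of all tested genes. No gene had every library below, compared with 16.8% of all tested genes. By role, 6 of 8 licensing genes rose, 2 of 5 helicase activation genes, 2 of 6 polymerase and primase genes, 2 of 5 clamp and loader genes, 1 of 2 Okazaki fragment joining genes, 3 of 5 nucleotide supply genes, 2 of 5 chromatin, histone mRNA, and uracil removal genes, and 4 of 6 G1/S regulators.

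The largest rise was that of Ung, which was at 11.0, 11.9, and 12.4 CPM with IL-4/13 + Inf, above all Inf libraries, with a log2 fold change of 0.64 (SE 0.11, edgeR adjusted p = 6.83e-05). E2f8 was at 27.8, 27.0, and 25.0 CPM and rose by 0.55 (SE 0.082, edgeR adjusted p = 6.63e-06). Fen1 was at 5.60, 6.07, and 5.94 CPM and rose by 0.52 (SE 0.16, edgeR adjusted p = 0.0198). The Fen1 call was lost without Inf replicate 1 (adjusted p = 0.0805) or IL-4/13 + Inf replicate 2 (0.0685). Rrm2 was at 115, 115, and 109 CPM and rose by 0.46, Ccne1 was at 46.3, 46.5, and 46.4 CPM and rose by 0.44, and Mcm6 was at 191, 193, and 178 CPM and rose by 0.41. Cdc6 and Mcm10, at 0.42 and 0.39, and Dut and Mcm3, at 0.38 and 0.37, were also called. The Mcm10 call was lost without IL-4/13 + Inf replicate 3 (adjusted p = 0.0545) or Inf replicate 1 (0.0632). Several genes that Inf had lowered were not called here, among them Chaf1b at 0.10, Lig1 at 0.10, E2f7 at 0.12, and E2f1 at 0.08. Lig1 was at 103, 104, and 96.9 CPM with IL-4/13 + Inf, which overlapped the Inf libraries. Gins2 was the only gene of the 42 with a value below 0, at −0.05 (SE 0.099). When each library was left out in turn, 19 to 23 genes were called higher, and 16 of the 22 calls held in every such fit. Beside Fen1 and Mcm10, the calls of Ccne2, E2f2, and Rfc5 were lost without Inf replicate 1 (log2 fold changes 0.24, 0.42, and 0.22, adjusted p = 0.0804, 0.123, and 0.0312) and that of Pola2 without IL-4/13 + Inf replicate 2 (0.23, adjusted p = 0.00789). Ccne2 was also lost without IL-4/13 + Inf replicate 3 (adjusted p = 0.0604), and E2f2 without IL-4/13 + Inf replicate 1 (0.105), IL-4/13 + Inf replicate 3 (0.0891), or Inf replicate 3 (0.0725).

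**Figure D3:**
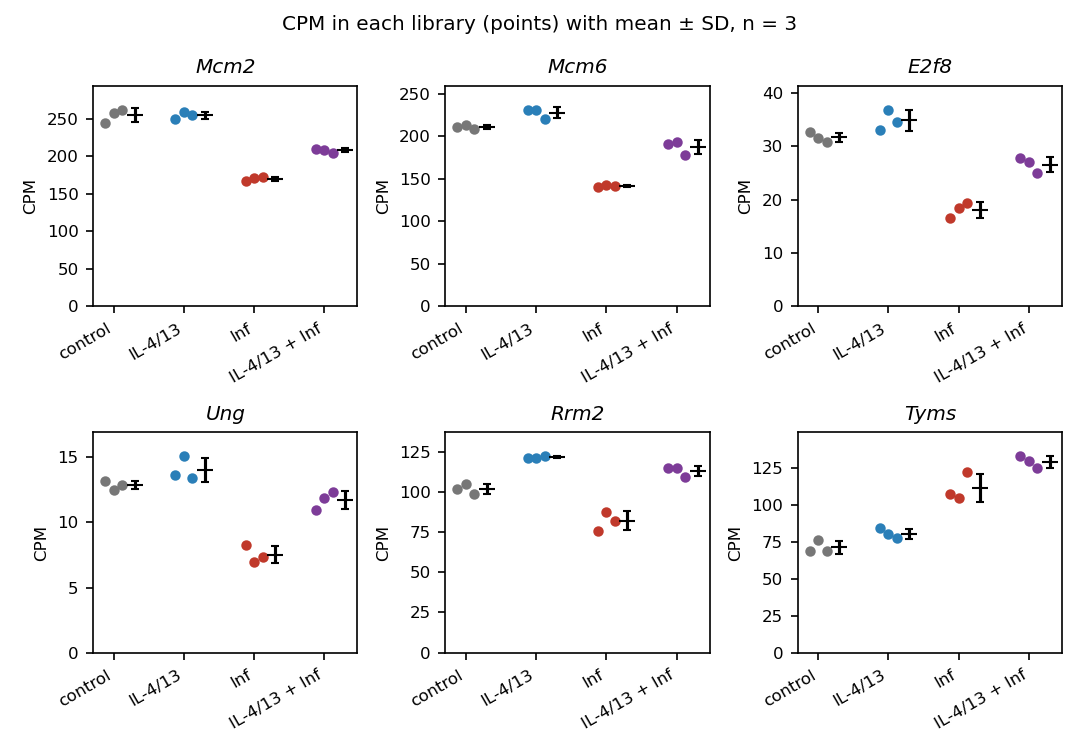
CPM of 6 genes in each library (points) with the mean and SD of each condition (black, n = 3). Mcm2, Mcm6, E2f8, and Ung were lowest with Inf and between Inf and control with IL-4/13 + Inf, Rrm2 was above control with IL-4/13 + Inf, and Tyms was highest there, at 125 to 133 CPM.

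Compared directly with control, few of the replication genes were called with IL-4/13 + Inf, and the largest change was that of Tyms. In all, 1 gene was called higher and 3 lower (edgeR), against 13.4% and 11.5% of all tested genes, and the median log2 fold change was −0.09. Every IL-4/13 + Inf library was above every control library in 3 genes (Tyms, Rrm2, and Ccne1), compared with 23.4% of all tested genes, and below in 19 genes, compared with 22.8%. Tyms was at 133, 130, and 125 CPM, a log2 fold change of 0.86 (SE 0.059, edgeR adjusted p = 2.43e-13). Chaf1b was at 49.0, 51.5, and 50.1 CPM in control and at 38.3, 41.0, and 40.2 CPM with IL-4/13 + Inf, a log2 fold change of −0.33 (SE 0.065, edgeR adjusted p = 0.00011). Mcm2 was at 210, 209, and 205 CPM and Mcm5 at 233, 229, and 225 CPM with IL-4/13 + Inf, below their control libraries, with log2 fold changes of −0.29 and −0.27. The number called lower was 7 without IL-4/13 + Inf replicate 2 and 6 when libraries were scaled by their size alone. Since this comparison and the one of Inf against control share the control libraries, their values are given side by side and were not set against each other.

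Whether IL-4/13 acted differently in the presence of Inf was tested as the interaction, which is the log2 fold change of IL-4/13 with Inf minus that without. Of the 42 genes, 3 were called higher and 0 lower (edgeR), against 1.52% and 1.59% of all tested genes, and the median was 0.13. DESeq2 also called 3 higher and 0 lower. At an unadjusted p under 0.05 edgeR gave 14 higher and 0 lower, with no count over all tested genes at that cutoff. Mcm6 had a log2 fold change of 0.11 with IL-4/13 alone and of 0.41 with IL-4/13 on top of Inf, a difference of 0.30 (SE 0.062, edgeR adjusted p = 0.00277). Its libraries were at 231, 231, and 220 CPM with IL-4/13. Mcm2 was at 250, 259, and 256 CPM with IL-4/13, which overlapped control, and had values of 0.00 and 0.29, a difference of 0.29 (SE 0.059, edgeR adjusted p = 0.00277). E2f8 was at 33.1, 36.9, and 34.6 CPM with IL-4/13 and had values of 0.14 and 0.55, a difference of 0.42 (SE 0.11, edgeR adjusted p = 0.0304). The calls of Mcm6 and Mcm2 held in all 19 alternatives of the fit, whereas that of E2f8 was lost in 7 of the 12 fits that left out a library (highest adjusted p = 0.113). Uhrf1 at 0.24, Mcm3 at 0.21, and Mcm5 at 0.20 also had adjusted p-values under 0.05 (edgeR, 0.0298, 0.0462, and 0.0396) but did not reach the size threshold. Without Inf replicate 2, 5 genes were called. Ung had the largest difference, 0.52, which did not pass (SE 0.15, edgeR adjusted p = 0.0568). For Tyms the difference was 0.03 (SE 0.083, edgeR adjusted p = 0.907).

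**Figure D4:**
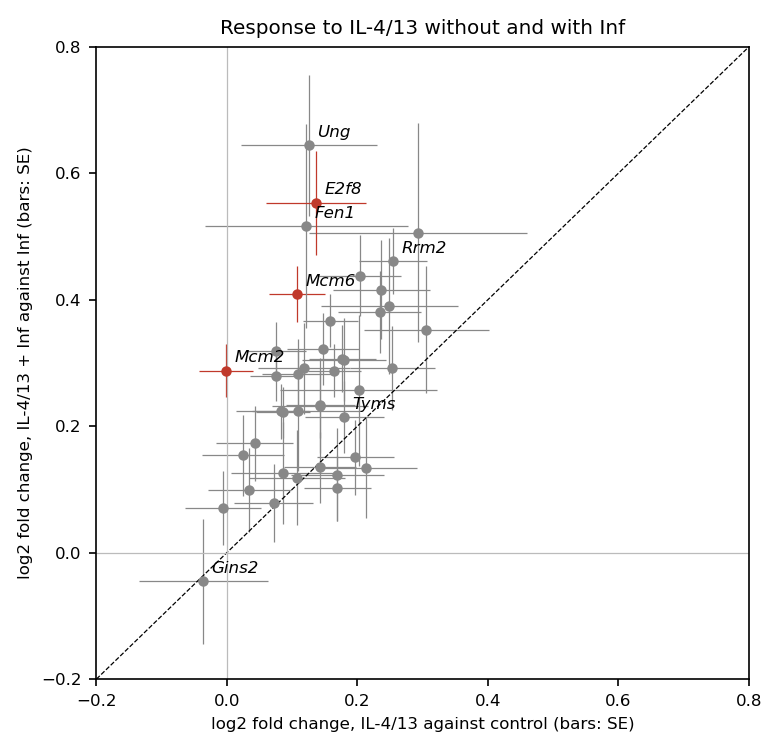
Log2 fold change of each of the 42 genes for IL-4/13 against control (horizontal) and for IL-4/13 + Inf against Inf (vertical), with SEs as bars and the line of equal response dashed. The comparisons share no library, and 36 of the 42 genes lie above the line. The median difference was 0.13, and that of all tested genes was −7.29e-05. The 42 genes were measured in the same libraries, so they are not independent observations. The 3 genes called for the interaction (Mcm2, Mcm6, and E2f8) are red.

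Other genes of the cell cycle were counted in the same fit, in which 15.3% of all tested genes were called lower and 16.3% higher with Inf, and 7.55% higher and 7.00% lower with IL-4/13 + Inf than with Inf. Of 41 further replication genes, such as the origin recognition complex and replication protein A, 21 were lower and 0 higher with Inf (edgeR, median log2 fold change −0.25), and 8 were higher and 0 lower with IL-4/13 + Inf than with Inf (median 0.17). At an unadjusted p under 0.05, these counts were 30 lower and 1 higher with Inf and 25 higher and 0 lower with IL-4/13 + Inf against Inf. DESeq2 called 20 lower and 0 higher and then 8 higher and 0 lower. Counts at an unadjusted p are given for the lists only, with no share of all tested genes beside them. Of 29 mitosis and G2/M genes, 23 were lower and 0 higher with Inf (median −0.31), and 14 were higher and 0 lower with IL-4/13 + Inf than with Inf (median 0.24). DESeq2 gave the same counts, and at an unadjusted p under 0.05 they were 28 lower and 0 higher and then 27 higher and 0 lower. Ccna2, the cyclin of S and G2 phase, had values of −0.64 and 0.34 in these comparisons, and Mybl2, an activator of mitotic genes that is itself an E2F target, had values of −0.55 and 0.59. The 26 tested genes of G1 control did not share a direction with Inf, with 5 higher (19.2%) and 6 lower (23.1%), shares near those of all tested genes, and a median of 0.01. With IL-4/13 + Inf against Inf, 4 were higher (15.4%) and 0 lower (edgeR and DESeq2), with a median of 0.08. At an unadjusted p under 0.05, edgeR gave 10 higher and 5 lower in that comparison. The genes named next include the largest fall and the largest rise with Inf, but not all called genes. Ccnd1, cyclin D1, which links growth signals to the cell cycle, fell by 1.47 with Inf (SE 0.045, edgeR adjusted p = 3.87e-22) and was higher by 0.49 with IL-4/13 + Inf than with Inf (SE 0.045, edgeR adjusted p = 1e-09). Ccnd2 fell by 0.63 with Inf, and Cdkn2b, an inhibitor of the cyclin D kinases, rose by 0.77 (SE 0.054). Myc and Cdk6 were higher with IL-4/13 + Inf than with Inf, by 0.31 and 0.37.

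**Figure D5:**
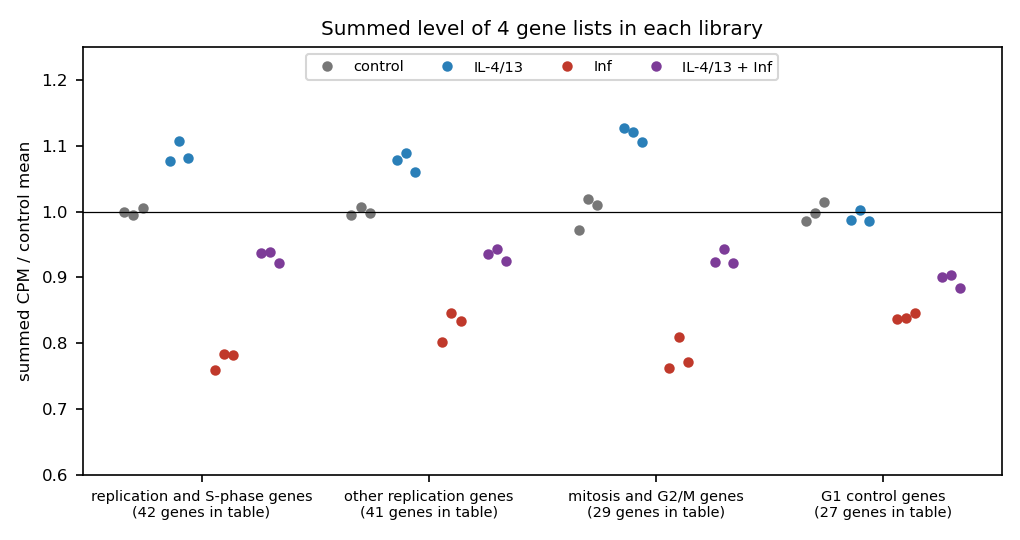
Summed CPM of 4 gene lists in each library, divided by the mean of the control libraries for that list; each point is a library, colored by condition, and the vertical axis does not start at 0. For the replication and S-phase genes, the other replication genes, and the mitosis and G2/M genes, the libraries order from IL-4/13 (highest) through control and IL-4/13 + Inf to Inf (lowest).

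Some of the genes share sequence with other genes, so their levels depend on how reads were counted. Of the 42 genes, 13 shared over 10% of the 50-base words of their longest GENCODE M21 transcript with another annotated gene, on either strand. Pcna shared 31.8% of them with the pseudogene Pcna-ps2, which held 1020 to 1899 counts per library, whereas Pcna itself held 263 to 508. With the counts of such pseudogenes added to their parent genes, Pcna was at a mean of 112 CPM in control and 95.4 CPM with Inf, and its log2 fold change of −0.23 was no longer past the size threshold (edgeR adjusted p = 0.00149). Mcm7 and Uhrf1 shared 26.0% and 18.0% with the pseudogenes Gm5487 and Gm5648, and with those counts added their log2 fold changes with Inf were −0.27 and −0.54. Tyms, with its pseudogene Tyms-ps at up to 23 counts, remained at 0.65. Antisense partners were the other source, and the exons of 15 of the 42 genes overlap those of a gene on the opposite strand (GRCm38). The longest overlaps are those of Chaf1a with Ubxn6 over 4648 bases, Gins2 with Gse1 over 2758, and Fen1 with Gm10143 over 1909. In 6 of the 15 genes an overlapping gene had more counts over the 12 libraries than the gene itself. Fen1, with 1105 counts, overlaps Tmem258 (13450 counts) over 130 bases, whereas Gm10143 had 75 counts. Rfc4, with 6002 counts, overlaps Eif4a2 (31880), Rfc5, with 8806, overlaps Wsb2 (19976), and Ccne2, with 5634, overlaps Ints8 (12950). Cdc45 with Ufd1 and Gins2 with Gse1 are the other pairs. The libraries were made with a stranded kit, but the strand setting of the counting is not given in the sources used here, so the levels of these 15 genes are uncertain.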

How the data were processed

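The authors sequenced 12 stranded polyA libraries of 3T3-L1 cells and deposited whole-number counts per gene without normalization. The submitters' processing notes name STAR, featureCounts, and GRCm39, with no versions. Conditions came from the labels, and doses and times from the study's description of these cultures. The members and the other gene lists were chosen with earlier results of these data known, so their counts are a description.

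Counts were analyzed with edgeR 4.0.16 in R 4.3.3 (filterByExpr with a minimum count of 10 and total of 15, TMM, and a robust quasi-likelihood fit with a term for each condition over all 12 libraries). The study's methods name DESeq2 for these libraries. Here it (version 1.42.0) was an alternative, and the thresholds are those given there for pseudobulk data. Adjusted p-values are Benjamini-Hochberg values over 14810 genes. The SE is the absolute log2 fold change divided by the square root of the F statistic. CPM are counts over the tested total times the TMM factor. Libraries with the same replicate number gave no sign of pairing: their deviations from the condition means had correlations of −0.146 to 0.0543 over 18 pairs. This check cannot show that the cultures were unpaired. Within a condition, chi-square per gene was 2.27 to 8.58 over 12 pairs, so none was a duplicate.

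Values were given in every library for the most abundant member per kb of each role, the 3 largest called rises and falls of each pairwise comparison, and each member called for the interaction. Further members were named with fold changes or ranges. Lengths and shared 50-base words came from GENCODE M21 (GRCm38), matched by gene ID, and promoters from RefSeq, matched by symbol. Protein features were not analysed here.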

Additional observations from a re-analysis of the deposited data

Results flagged for a closer look

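The response to IL-4/13 differed with and without Inf for 3 of the 42 genes in edgeR's quasi-likelihood test of the interaction. The difference was 0.42 for E2f8 (SE 0.11, adjusted p = 0.0304), 0.29 for Mcm2 (SE 0.059, adjusted p = 0.00277), and 0.30 for Mcm6 (SE 0.062, adjusted p = 0.00277), all on the log2 scale and all with the larger rise in the presence of Inf. Over the alternatives of the fit, the adjusted p ranged from 0.00939 to 0.113 for E2f8, from 0.000204 to 0.017 for Mcm2, and from 0.000302 to 0.0228 for Mcm6.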

How the results depend on the processing

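With DESeq2, DESeq2's size factors, no filter, a mean of 50 counts, or only the groups compared, every count of called genes stayed within 1.5 times its reported value. Mcm7 lost its Inf call with a mean of 50 counts (log2 fold change −0.24). No called gene turned its direction in any alternative. With library size alone, 6 genes were lower with IL-4/13 + Inf than with control, compared with 13% of all tested genes. The summed level moved to 3654 CPM in control and 3342 CPM with IL-4/13 + Inf. With no size threshold, 11 genes were higher with IL-4/13, against 4.5% of all tested genes. With IL-4/13 + Inf against control, 2 were higher and 14 lower, compared with 17.2% and 16% of all tested genes. For the interaction, 6 were higher, compared with 1.72%. At 0.5, 8 were lower with Inf, compared with 5.83% of all tested genes. At that threshold 4 were higher with IL-4/13 + Inf against Inf, compared with 2.36%. None were higher with IL-4/13 (all tested genes 1.3%) or lower with IL-4/13 + Inf against control (5.84%). For the interaction 0 were called (0.452% higher and 0.648% lower). At 1, all counts were 0, compared with 0.115% to 5.31% of all tested genes. At an adjusted p of 0.01, 1 gene was higher with IL-4/13, compared with 2.09% of all tested genes. Leaving out each library gave 1 to 4 genes higher with IL-4/13, 28 to 34 lower with Inf, 3 to 7 lower with IL-4/13 + Inf against control, 19 to 23 higher with IL-4/13 + Inf against Inf, and 2 to 5 for the interaction. With the replicate block, 32 genes were lower with Inf, 22 were higher with IL-4/13 + Inf against Inf, 3 were called for the interaction, and 2 were higher with IL-4/13, Ccne2 being lost (adjusted p = 0.0816). The labels give no meaning to a shared number beyond the number itself. Adding pseudogene counts, an alternative chosen after seeing the data, left 31 genes lower with Inf and lost Pcna. Fen1 and E2f2 had as few as 54 and 59 counts in a library, which limits their precision. Fen1 also overlaps genes on the opposite strand, and the source of its low counts was not tested.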
